A study of Mus musculus with 4 samples.

Results

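T cells in which no transcript of either coreceptor was captured were examined: cells with a UMI of a CD3 chain and none of Cd4, Cd8a or Cd8b1. They are called no-coreceptor T cells here. Members were chosen by measured values. A cell was kept with 200 to 7000 genes detected, no more than 5% of its UMIs (unique molecular identifiers, which count captured RNA molecules) from mitochondrial genes, a UMI of the CD3 genes Cd3d, Cd3e or Cd3g, and no UMI of Cd4, Cd8a or Cd8b1. Cells with a UMI of any of 10 further genes were left out (Foxp3, Klrb1c, Zbtb16, Trdc, Tcrg-C1, Tcrg-C2, Gzmk, Eomes, Il1rl1 and Il17a), which mark regulatory, natural killer T, gamma-delta, Gzmk-positive and other innate-like or type 2 and type 17 cells. The rule kept 1322 of 4801 cells, which is 31.8% of the 4157 T cells within the limits. The question was how many of them the sampling of Cd4 alone would leave without a Cd4 UMI, and whether the rest of their transcripts resembled those of CD4 or of CD8 T cells.

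The study profiled T cells of the brain's border tissues by droplet single-cell RNA sequencing of transcript 5′ ends. The 4 libraries came from 2 tissues, meninges and choroid plexus, of C57BL/6 female mice at an age of 10 weeks (young) or 18 months (aged), and no mouse carried a transgene or received a treatment in this experiment. Each library pooled cells of 5 mice, so there was 1 library per condition, the effect of age was not tested, and intervals below are 95% intervals that cover counting error only. The T cells entering the droplets had been isolated by flow cytometry as CD4 or CD8 T cells, and the exact gate is not given in the sources used here. Where 4 values are listed, they are for the young meninges, then the young choroid plexus, then the meninges and then the choroid plexus of the aged mice.

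The coreceptors CD4 and CD8 bind MHC class II and class I molecules and recruit the kinase Lck to the T-cell receptor, and a mature conventional T cell keeps 1 of them. CD4 T cells mainly give help through cytokines and CD40 ligand under the factor ThPOK (Zbtb7b), and CD8 T cells mainly kill target cells with granzymes and perforin under Runx3. Some T cells lack both proteins, among them many gamma-delta and natural killer T cells. In droplet data a transcript of low abundance is also missed in many cells that hold it, which is called dropout.

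Cells numbered 1111, 718, 1695 and 1277, with 3737140, 2295950, 4262917 and 3957717 UMIs in total. Of the 1023, 627, 1408 and 1099 T cells, 485, 275, 735 and 358 had no coreceptor UMI, which is 47.4%, 43.9%, 52.2% and 32.6%. The 10 further genes then removed 87, 20, 301 and 123 of these cells. The removed share was 41.0% and 34.4% in the aged tissues and 17.9% and 7.27% in the young ones. In the aged meninges 160 of the cells without a coreceptor UMI had a Gzmk UMI and 82 a Foxp3 UMI, against 12 and 25 in the young meninges. This left 398, 255, 434 and 235 no-coreceptor T cells, or 38.9% (35.9 to 42.0, Clopper-Pearson), 40.7% (36.8 to 44.6), 30.8% (28.4 to 33.3) and 21.4% (19.0 to 23.9) of the T cells of each library. The share of all T cells was lower in the aged than in the young library of both tissues, while the share removed by the 10 genes, which the rule fixes, was higher. Before that removal the share without a coreceptor UMI was not lower in the aged meninges, at 52.2% (49.6 to 54.8) against 47.4% (44.3 to 50.5) in the young, so the lower meningeal share appears only after it. These shares also depend on the CD8 T cells in the total, with 260, 167, 281 and 476 T cells that had a Cd8 but no Cd4 UMI. T cells with Cd4, no Cd8 UMI and none of the 10 genes numbered 228, 157, 235 and 149, beside 398, 255, 434 and 235 members.

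No-coreceptor T cells were compared with T cells of the same libraries that met the same limits and lacked the same 10 genes. CD4 T cells showed Cd4 but neither Cd8 gene (228, 157, 235 and 149 cells), and CD8 T cells showed Cd8a or Cd8b1 but not Cd4 (201, 124, 76 and 136 cells). Before the 10 genes were applied, these classes held 260, 166, 362 and 231 CD4 and 260, 167, 281 and 476 CD8 T cells. The CD8 T cells named below are thus those without a UMI of Gzmk, Eomes or the others, a minority in the aged libraries. The no-coreceptor T cells were the shallowest of these classes in each library, at a median depth of 2944, 2830, 1986 and 2285 UMIs. CD4 T cells had 3189, 2859, 2144 and 2519, and CD8 T cells had 3610, 3330, 2689 and 3049. Cells with more UMIs give more chances to capture a coreceptor, so depth differed between the classes in the direction that the rule itself favours.

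Every member has a UMI of a CD3 chain by the rule, and 7, 3, 14 and 8 of the members rested on a single Cd3 UMI. The label T cell was therefore checked against T-cell genes outside the rule, with UMIs summed over the cells and scaled to 1000000 UMIs of the same cells (CPM). The T-cell receptor constant gene Trac stood at 236.9, 303.9, 319.8 and 363.0 CPM, and the kinase gene Lck at 631.7, 591.7, 548.3 and 486.3 CPM. The 11 T-cell genes examined outside the rule had UMIs in every library, which does not go against the label.

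Markers of most other cells were few, with haemoglobin and immunoglobulin genes as the exceptions. The 4 haemoglobin genes had 722, 1, 744 and 0 UMIs in 20, 1, 66 and 0 members, and 1 cell held 703 of them in the young and 671 in the aged meninges. A haemoglobin UMI was present in 5.03% and 15.2% of the members of the young and aged meninges and in 8.33% and 17.9% of their CD4 T cells. The neutrophil genes S100a8 and S100a9 had no UMI in any member. The 5 fibroblast genes together had 0, 0, 1 and 1 UMIs, the 2 platelet genes 3, 2, 0 and 0, and the 7 macrophage genes 10, 13, 6 and 5, with Cd14 at 0. Epithelial genes of the choroid plexus (Ttr, Enpp2 and Folr1) had 0, 3, 0 and 9 UMIs. Of 5 B-cell genes, Ighm gave 97.4% to 99.3% of the UMIs, while Ms4a1 stood at 0. A UMI of these B-cell genes was present in 46.0%, 46.7%, 25.6% and 29.8% of no-coreceptor T cells and in 46.5%, 42.0%, 25.1% and 28.2% of CD4 T cells, and the part of this signal in the other results was not tested. Among 3 endothelial genes only Pecam1, which T cells also express, had UMIs, and Cldn5 and Kdr stood at 0.

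Cells with unconventional receptors are a known source of T cells without coreceptors, so genes of these lineages outside the rule were also counted. The 10 gamma-delta genes outside the rule, among them Tcrg-V6 and Trgv2, had a UMI in 2.51%, 1.18%, 2.53% and 1.702% of no-coreceptor T cells. In CD4 T cells the shares were 0.439%, 0.637%, 1.28% and 2.01%. In CD8 T cells they were 1.99%, 3.23%, 21.1% and 22.8%, led by Trgv2 in all but the young meninges. Tcrg-V6, a V segment of innate-like gamma-delta T cells, had 16 UMIs in 5 members of the young meninges and none in the members of the other libraries. Genes of natural killer and innate lymphoid cells had a UMI in 1.26%, 1.18%, 2.76% and 2.55% of no-coreceptor T cells, with 1 Ncr1 UMI in the aged meninges and 0 in the members of the other libraries. The invariant receptor V genes Trav11 and Trav1 together had 3, 1, 1 and 3 UMIs. These lineages were therefore seen in few members once the 10 genes had been applied. By design that step removes cells with a captured UMI of these genes. Cells of these lineages, and regulatory T cells, in which no such UMI was captured stay among the members. Their number was not tested. A doublet caller, Scrublet, marked 3, 6, 0 and 0 members. Library pairs shared between 0 and 3 cell barcodes, and no barcode was shared between members of 2 libraries.

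Cd4 (mm10 chr6:124864692-124888221, minus strand) was captured sparsely even in the cells that showed it. Its UMIs stood at 393 (350 to 440, Poisson), 427 (371 to 489), 561 (501 to 627) and 505 (439 to 579) CPM in CD4 T cells, a class that the presence of Cd4 defines. Of the CD4 T cells, 72.4%, 77.1%, 73.2% and 72.5% had exactly 1 Cd4 UMI, and no cell had more than 6. Cd8a (chr6:71373427-71379173, plus strand) and Cd8b1 (chr6:71322788-71337494, plus strand), both also on mm10, were captured in greater number. Only 13.4%, 20.2%, 18.4% and 11.8% of CD8 T cells had a single UMI of the pair, and the medians were 6, 5, 4 and 6 UMIs per cell.

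**Figure D1:**
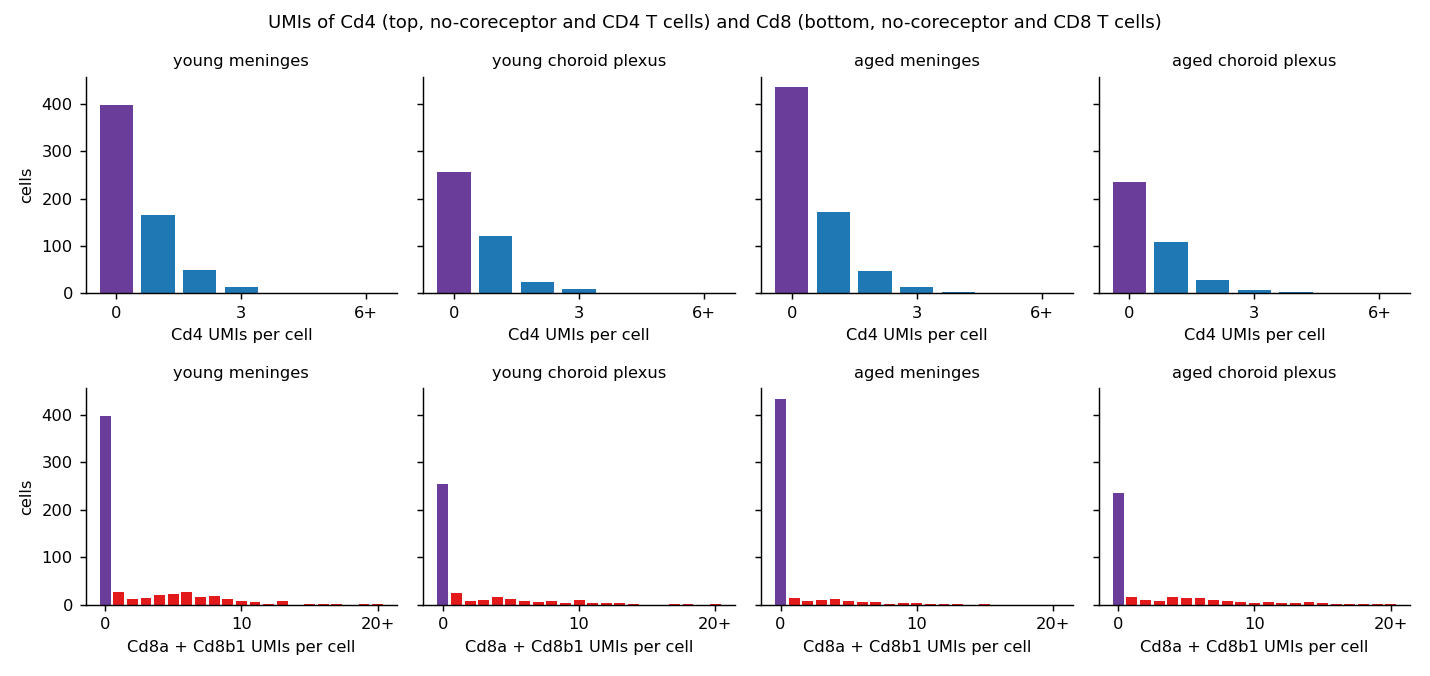
Number of cells (y axis) by UMIs per cell (x axis), for Cd4 in no-coreceptor and CD4 T cells (top) and for Cd8a plus Cd8b1 in no-coreceptor and CD8 T cells (bottom), 1 column per library. Purple bars at 0 are the no-coreceptor T cells. The Cd4 bars fall steeply from 0 and 1 UMI, while the Cd8 bars of CD8 T cells spread over many values, with a median of 4 to 6 UMIs, although 1 UMI is the most frequent count or shares that place.

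The number of CD4 T cells that this sampling would leave without a Cd4 UMI was estimated in each library from the CD4 T cells alone. A zero-truncated Poisson model, in which each UMI of a cell has the same chance of being Cd4, was fitted to their Cd4 UMIs with the cell's depth as offset. The fitted rates were 0.181, 0.188, 0.260 and 0.247 Cd4 UMIs per 1000 UMIs, and at the members' median depth a CD4 T cell would then show no Cd4 UMI with a probability of 58.8%, 58.7%, 59.6% and 56.8%. The expected numbers of such cells were 320 (246 to 421, likelihood interval), 229 (165 to 323), 342 (265 to 446) and 189 (138 to 262). These are 80.5%, 90.0%, 78.9% and 80.4% of the no-coreceptor T cells counted. In all 4 libraries the counted number lay above the expected one and within its interval. Over the libraries 1081 cells were expected of 1322 counted. With a zero-truncated negative binomial, which lets the chance vary between cells, the expected numbers were 722 in the aged meninges and 321 in the aged choroid plexus, above the counted ones, and 319 in the young meninges, and this model could not be fitted in the young choroid plexus.

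The same calculation for Cd8a plus Cd8b1, with fitted rates of 1.58, 1.505, 1.44 and 2.05 UMIs per 1000, gave only 1.79, 2.93, 4.38 and 1.67 CD8 T cells without a Cd8 UMI. That is 0.450%, 1.15%, 1.01% and 0.710% of the no-coreceptor T cells. The 2 genes of the CD8 dimer also check each other: 29.6%, 38.1%, 27.5% and 18.05% of CD8 T cells with Cd8b1 lacked Cd8a, and 3.50%, 7.59%, 12.3% and 2.68% of those with Cd8a lacked Cd8b1. If both were captured independently, 2.10, 3.699, 2.66 and 0.661 cells would lack both. A zero-truncated negative binomial gave 6.71, 11.7, 9.91 and 9.08 cells. By each of these counts the CD8 T cells expected without a Cd8 UMI were few beside the members of each library. These rates describe detection from the 5′ end and not amounts of RNA, since capture can differ between genes.

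The Cd4 model and the count were also compared by depth. No-coreceptor and CD4 T cells of each library were pooled and divided by depth into 3 classes of equal size. In the shallow class 68.4%, 65.9%, 70.9% and 69.5% of the pooled cells lacked a Cd4 UMI, and the model for a population made of CD4 T cells alone gave 68.7%, 68.3%, 70.4% and 68.8%. In the middle class 65.9%, 59.9%, 65.5% and 57.0% lacked one, beside a modelled 57.8%, 58.7%, 58.9% and 54.9%. In the deep class 56.5% (49.4 to 63.3), 59.9% (51.1 to 68.1), 58.3% (51.5 to 64.8) and 57.0% (48.0 to 65.7) lacked one, and the model gave 46.5%, 47.1%, 43.1% and 39.2%, below each interval. With 1 Cd4 rate per library the model gave 101%, 111%, 100.3% and 93.1% of the members in the shallow class and 67.2%, 60.7%, 54.8% and 52.6% of those in the deep class. This order depended on the single rate. An alternative chosen after seeing the data gave each class a Cd4 rate of its own. The expected cells were then 86.0%, 60.3%, 70.0% and 37.0% of the members in the shallow class. They were 92.8%, 122%, 50.9% and 186% in the middle class and 62.9%, 75.1%, 82.5% and 56.2% in the deep class. The deep class then stood above the shallow one in all but the young meninges, but no library had a steady order over the 3 classes.

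**Figure D2:**
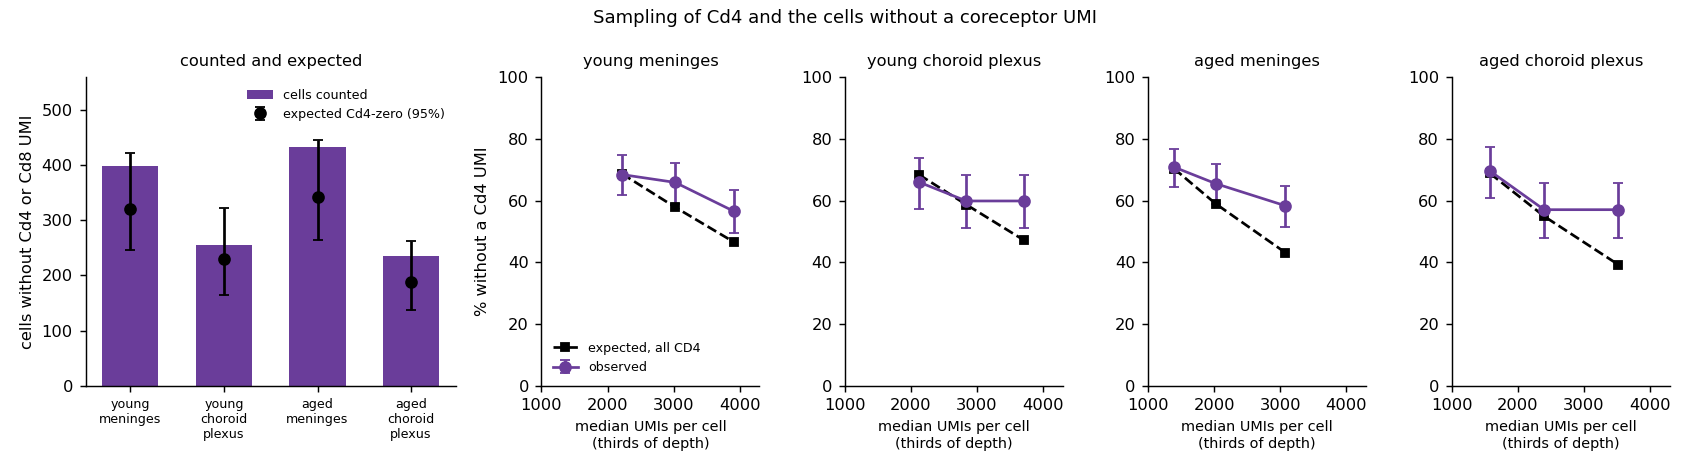
Left, no-coreceptor T cells counted (bars, from 0) and CD4 T cells expected without a Cd4 UMI under the Poisson model (points, with 95% likelihood intervals). The other panels show the percentage of no-coreceptor and CD4 T cells without a Cd4 UMI by median depth of each class, as counted (purple, with Clopper-Pearson intervals) and as the model gives for CD4 T cells alone (black, dashed). With 1 rate per library, counted and modelled shares meet in the shallow class and part in the deep class.

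Cells marked as CD4 T cells by another transcript allowed a direct count. Cd40lg (mm10 chrX:57212143-57224042, plus strand) encodes CD40 ligand, by which CD4 T cells help B cells and myeloid cells. Among all T cells with Cd40lg and without a Cd8 UMI (283, 145, 379 and 198 cells, the 10 further genes allowed), 62.2% (56.3 to 67.9), 54.5% (46.0 to 62.8), 63.1% (58.0 to 67.9) and 51.0% (43.8 to 58.2) had no Cd4 UMI. The model gave 53.4%, 53.9%, 50.5% and 44.7% for the same cells, below the counted interval in the aged meninges and in the young meninges and inside it in both choroid plexus libraries. Zbtb7b, the factor that sets the CD4 lineage, marked 49, 29, 54 and 40 cells, of which 61.2%, 58.6%, 61.1% and 47.5% lacked Cd4. Foxp3, the factor of regulatory T cells, which are CD4 cells as a rule, marked 32, 11, 126 and 48 cells, of which 78.1%, 63.6%, 65.1% and 58.3% lacked it. Thus more cells with a transcript of the CD4 lineage were without Cd4 than with it, except for the Zbtb7b cells of the aged choroid plexus, though the groups of few cells leave wide intervals.

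A count at high depth was made among no-coreceptor and CD4 T cells alone, without the 10 further genes. In the deep class, which held 107, 60, 126 and 69 such cells with Cd40lg, 57.9% (48.0 to 67.4), 60% (46.5 to 72.4), 57.1% (48.0 to 65.9) and 50.7% (38.4 to 63.0) of the Cd40lg cells had no Cd4 UMI. All pooled cells of that class, of which the Cd40lg cells are a subset, gave 56.5%, 59.9%, 58.3% and 57.0%. Cd40lg UMIs also occurred in 5.47%, 4.84%, 7.89% and 8.82% of CD8 T cells, so a Cd40lg UMI does not mark a CD4 T cell without fail.

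The model was also tried on genes that T cells express as a rule. For 11 T-cell genes, among them Trac, Lat, Lck, Cd2 and Thy1, zeros in CD4 T cells were counted and set against the zeros expected from a zero-truncated fit of the same kind. The counted zeros were at a median 1.696, 1.39, 1.77 and 1.56 times the expected ones, with a range over genes and libraries from 0.847 for Lck in the young meninges to 5.08 for Trbc1, 1 of 2 alternative receptor constant genes, in the young choroid plexus. Without Trbc1 the medians were 1.63, 1.34, 1.65 and 1.48. The ratio of counted no-coreceptor T cells to expected Cd4 zeros was 1.24, 1.11, 1.27 and 1.24, below both medians in each library. In the other direction, 6.47%, 10.2%, 9.65% and 6.67% of all Cd8-positive T cells had a Cd4 UMI, so some Cd4 UMIs of the CD4 class can lie outside CD4 T cells, and how many was not tested.

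Transcripts that the rule did not use separated no-coreceptor T cells from CD8 T cells. UMIs were summed per library and class, and the 12 sums were tested across the 4 libraries with edgeR's quasi-likelihood test, library as a block, and Benjamini-Hochberg adjustment over 6195 genes, leaving out the 16 genes of the rule. The 4 libraries differ in age and tissue and served as the replicates of the contrast between classes. Against CD8 T cells 452 genes passed an adjusted p of 0.05, or 7.3% of those tested. Of these 197 were higher (3.18%) and 255 lower (4.12%) in no-coreceptor T cells. CD4 against CD8 T cells gave 478 genes on the same sums. The count of 452 was 229 with DESeq2 and 36 without the library block.

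Genes of killing and of CD8 identity were lower. All 11 testable genes of 14 on the CD8 and cytotoxic list passed as lower than in CD8 T cells (median log2 difference -2.20, beside 0.00 over all genes tested). Nkg7, a granule protein of killer cells, stood at 120.5, 117.0, 411 and 303 CPM in no-coreceptor T cells and at 519.8, 915, 1953 and 1579 CPM in CD8 T cells, higher in the latter in every library. Its log2 difference was -2.54 ± 0.11 (SE, 4 libraries, edgeR adjusted p = 1.33e-14). Klrd1, the CD94 chain of a killer-cell receptor, stood at 18.3, 25.6, 33.3 and 21.6 CPM against 174, 171, 139.8 and 209 CPM, with a log2 difference of -2.99 ± 0.18 (edgeR adjusted p = 9.66e-12) and no overlap between the classes. Ccl5, a chemokine of activated CD8 T cells, differed by -2.23, the protease Ctsw by -1.51 and the factor Runx3 by -0.83 on the log2 scale. Gzma, Gzmb, Klrk1, Cst7, Itgae and Dapl1 were the other members of the list, and of these Gzma and Gzmb were not lower in the young meninges (4.99 and 3.32 against 3.899 and 2.60 CPM), nor Itgae in the aged meninges (9.66 against 8.22 CPM). The call of Gzma was lost without the aged meninges. Without the library block 36 of all genes tested passed, with Nkg7, Klrd1 and Ctsw among them.

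Genes of CD4 help were higher. Of the 8 genes on the CD4 helper list 7 could be tested, and 5 passed as higher than in CD8 T cells (median log2 difference 1.40). Cd40lg stood at 204, 137, 298 and 173 CPM in no-coreceptor T cells, at 205, 187, 316 and 275 CPM in CD4 T cells and at 27.3, 15.0, 49.3 and 36.6 CPM in CD8 T cells. The classes without and with Cd4 were both above CD8 in every library, and the log2 difference from CD8 T cells was 2.56 ± 0.18 (edgeR adjusted p = 1.83e-10). Izumo1r, a folate receptor-like protein of CD4 T cells, differed by 2.75, Tnfrsf4 (the costimulatory receptor OX40) by 2.43, Zbtb7b by 1.40 and the costimulator Icos by 1.18. The call of Zbtb7b (edgeR adjusted p = 0.0289) was lost without the young meninges (1.14, adjusted p = 0.232), without the young choroid plexus (1.28, adjusted p = 0.130) and without the aged choroid plexus (1.63, adjusted p = 0.0546). It was also lost with DESeq2 (1.38, adjusted p = 0.285) and in edgeR without the library block (1.34, adjusted p = 0.180). Tnfsf8 and Gata3 did not pass, with 29.1, 47.1, 184.6 and 158 CPM for Tnfsf8 against 27.3, 51.3, 61.7 and 68.9 CPM in CD8 T cells. Among 11 T-cell genes Cd5, Cd6, Cd247 and Lat were higher and Thy1 lower, by 1.17, 0.77, 0.58, 0.29 and -0.29 log2 (median of the list 0.13).

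On the lists of cell state the differences from CD8 T cells were fewer. Of 12 naive genes S1pr1 (0.50 log2) and Igfbp4 (0.67) were higher and Bcl2 (-0.58) lower, at a median of 0.04. Of 18 effector memory genes Maf (2.08) and Bhlhe40 (0.997), both transcription factors of activated T cells, were higher, at a median of -0.01. Areg was the 1 of 4 cytokine genes that passed, although it was lower in the members than in CD8 T cells of the young meninges (0.831 against 7.80 CPM) and had no UMI in either class in the young choroid plexus. Junb, of the stress list, differed by 0.74 (1 of 7 genes, median 0.56). Among markers of other cells Ighm (0.56) and Pecam1 (1.06) passed as higher, and their part in the other results was not tested. Hbb-bs, a haemoglobin chain, also passed (3.97), but without the 2 cells of over 100 haemoglobin UMIs, left out after seeing the data, its log2 difference was -0.32 (edgeR adjusted p = 0.789), and 448 genes passed against CD8 T cells.

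The 10 genes most raised against CD8 T cells were Hbb-bs, Ptpn13, Spp1, Ifitm2, Areg, Cd81, Tiam1, Cd83, Izumo1r and Cpne7. Cd81, a tetraspanin, stood at 44.1, 14.8, 104 and 83.3 CPM against 9.10, 4.28, 4.11 and 2.15 CPM in CD8 T cells (log2 difference 3.05 ± 0.37, edgeR adjusted p = 2.82e-06). Tiam1, an activator of the GTPase Rac, stood at 14.1, 10.8, 47.2 and 49.96 CPM against 3.899, 0, 8.22 and 2.15 CPM. Both were above CD8 T cells in each library, and CD4 T cells held 25.6, 28.7, 86.5 and 61.3 CPM of Cd81. For Hbb-bs, Ptpn13, Spp1, Ifitm2, Areg, Tiam1, Cd83 and Cpne7 the CD8 sums were 0 in 1 or more libraries, and their fitted values, from 2.73 to 3.97, are not bounds of a fold. Spp1 had no UMI in CD8 T cells of 3 libraries, nor in the members of either young one. The 10 most lowered were Lcn4, Adgrg5, Cd160, Klrd1, Gzma, Itgae, Fam241a, Tm6sf1, Nkg7 and Plac8. Cd160, a receptor of cytotoxic lymphocytes, stood at 0.831, 0, 7.51 and 1.67 CPM against 35.1, 34.2, 61.7 and 45.2 CPM, and Lcn4, of the lipocalin family, at 0.831, 2.69, 1.07 and 3.33 against 68.9, 68.4, 32.9 and 30.2 CPM. The values of the 2 classes did not overlap for either gene.

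Against CD4 T cells 5 of the 6195 genes passed (0.0807%), 1 higher and 4 lower in no-coreceptor T cells, and 372 had an unadjusted p under 0.05. No gene passed with DESeq2 (77 at an unadjusted p under 0.05), and none passed in edgeR without the library block (102) or after thinning each cell to 1000 UMIs (170). The count was 55 without the filter on low counts, 19 with all CD4 and CD8 T cells as references, 12 without the aged choroid plexus, 3 without the young meninges and 2 without the aged meninges. A gene that misses the threshold is not shown to be equal, and a difference in Cd4 itself is fixed by the rule. The spread of a gene came from all 12 sums, so variation of CD8 T cells between libraries also entered this test. Its part in the count was not tested. No gene of the T-cell, CD4 helper, CD8 and cytotoxic, naive or effector memory lists passed. Their median log2 differences were -0.12, -0.21, 0.11, 0.12 and -0.19, beside 0.00 over all genes. For Nkg7 the difference was -0.12, for Ccl5 -0.07, for Cd40lg -0.22 and for Zbtb7b -0.20. The cytokine list, with 4 of 11 genes tested, and the stress list, with 7 of 8, also held no gene that passed, at medians of -0.13 and -0.02.

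The genes that did pass were mostly carried by few cells. Hbb-bs was the gene higher in no-coreceptor T cells (log2 difference 3.82 ± 0.24, edgeR adjusted p = 6.57e-11), at 328, 1.34, 622 and 0 CPM. In each of the meningeal libraries 1 cell held nearly all of it, with 703 of 722 haemoglobin UMIs in the young and 671 of 744 in the aged library. Without those 2 cells, an alternative chosen after seeing the data, the log2 difference was -0.39 and did not pass (edgeR adjusted p = 0.963). Spp1, which encodes osteopontin, was lower (-2.20 ± 0.26, edgeR adjusted p = 3.69e-05), at 24.7 against 91.8 CPM in the aged meninges and 69.9 against 378 CPM in the aged choroid plexus. In the latter 3 no-coreceptor T cells held it, 1 of them with 40 of 42 UMIs, and 8 CD4 T cells, 1 of them with 98 of 154 UMIs. Sostdc1, a secreted antagonist of BMP and Wnt signals, was lower (-2.30), with UMIs in 7 and 4 no-coreceptor and in 11 and 7 CD4 T cells of the aged tissues and in no cell of these classes in the young ones.

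Podnl1, a leucine-rich repeat proteoglycan gene, was less concentrated in single cells. It stood at 15.0, 6.72, 32.2 and 36.6 CPM in no-coreceptor T cells and at 29.5, 14.4, 83.0 and 73.6 CPM in CD4 T cells, lower in the former in 4 of 4 libraries (log2 difference -1.10 ± 0.21, edgeR adjusted p = 0.0308). A UMI was found in 3.27%, 1.57%, 6.45% and 9.36% of no-coreceptor T cells and in 6.58%, 3.82%, 17.4% and 18.8% of CD4 T cells. The call was lost without the young meninges (log2 difference -1.15, edgeR adjusted p = 0.0832), without the aged meninges (-0.956, adjusted p = 0.695) and without the aged choroid plexus (-1.15, adjusted p = 0.0942). Trav13d-1, a T-cell receptor V segment with near-identical copies among which reads can be split, was also lower (-2.19), at 6.65, 8.07, 18.2 and 0 CPM against 42.3, 16.4, 63.5 and 39.2 CPM, in 0 to 9 members and 4 to 8 CD4 T cells of a library.

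The position of the summed profile between the references was then measured. Genes higher in CD4 or in CD8 T cells were chosen in the other tissue of the same age, so that no cell of the library scored took part in the choice, and their CPM was summed (72, 135, 155 and 322 CD4 genes and 29, 34, 72 and 26 CD8 genes). On a scale from 0% at CD8 T cells to 100% at CD4 T cells, no-coreceptor T cells stood at 128% (120 to 135), 99.8% (95.3 to 104), 98.4% (96.9 to 99.9) and 99.4% (97.3 to 102) by the CD8 genes. In 3 libraries the level of CD8 genes was thus that of CD4 T cells to within a few percent, and in the young meninges it was lower still, at 1680 CPM against 2258 in CD4 and 4355 in CD8 T cells. By the CD4 genes they stood at 97.0% (89.7 to 104), 56.3% (47.9 to 64.6), 86.6% (83.2 to 89.9) and 72.0% (67.5 to 76.4). With gene sets from the 3 other libraries the positions by CD4 genes were 67.1%, 84.8%, 79.9% and 70.5%. The interval by CD4 genes thus lay below the level of CD4 T cells in 3 libraries with the first sets and in all 4 with the second. In the young meninges it included that level with the first sets. The order of the libraries was not the same.

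In the aged libraries the position by CD4 genes fell with depth on references that were not divided by depth. On undivided references it was 118%, 95.6% and 64.2% from the shallow to the deep class of members in the aged meninges and 109%, 75.8% and 52.6% in the aged choroid plexus. On references of the same class there was no steady fall in either aged library. The position by CD4 genes was then 70.5%, 85.2% and 76.3% in the aged meninges and 71.9%, 73.4% and 61.6% in the aged choroid plexus. In the young tissues it was, on undivided references, 96.3%, 93.1% and 101% (meninges) and 38.4%, 14.1% and 95.7% (choroid plexus). On references of the same class it was 116%, 98.9% and 94.4% in the young meninges. In the young choroid plexus the members held less of the CD4 genes than the CD8 T cells of the same class in the shallow class (7096 against 8315 CPM) and in the middle class (6313 against 6751 CPM), and stood at 81.1% in the deep class. By the CD8 genes the young meninges stood at 170%, 63.7% and 185% on references of the same class, and in the middle class the members held more of these genes than CD4 T cells (2139 against 1046 CPM). CD4 T cells of the same classes changed in the same direction, with 30053, 26973 and 23635 CPM of the CD4 genes in the aged meninges beside 28159, 24935 and 20428 CPM in the members. Within each depth class of both aged libraries the members were below the CD4 T cells.

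Single cells were placed by the same genes. Each cell was thinned to 1000 UMIs, its UMIs were weighted by the log2 ratio of CD4 over CD8 T cells, and a sum above 0 was called CD4-like. Of the no-coreceptor T cells, 91.1% (87.8 to 93.7), 97.2% (94.4 to 98.9), 88.7% (85.3 to 91.6) and 92.4% (88.2 to 95.5) were CD4-like. CD4 T cells gave 89.0%, 99.4%, 91.7% and 95.9%, and the intervals of both classes overlapped in each library. The score told the references apart poorly in young tissue, where 41.8% and 57.0% of CD8 T cells were also CD4-like, on a median of 7 informative UMIs per cell, and better in aged tissue, with 28.8% and 35.6%. Thinning left out 5, 1, 17 and 10 members that were too shallow.

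**Figure D3:**
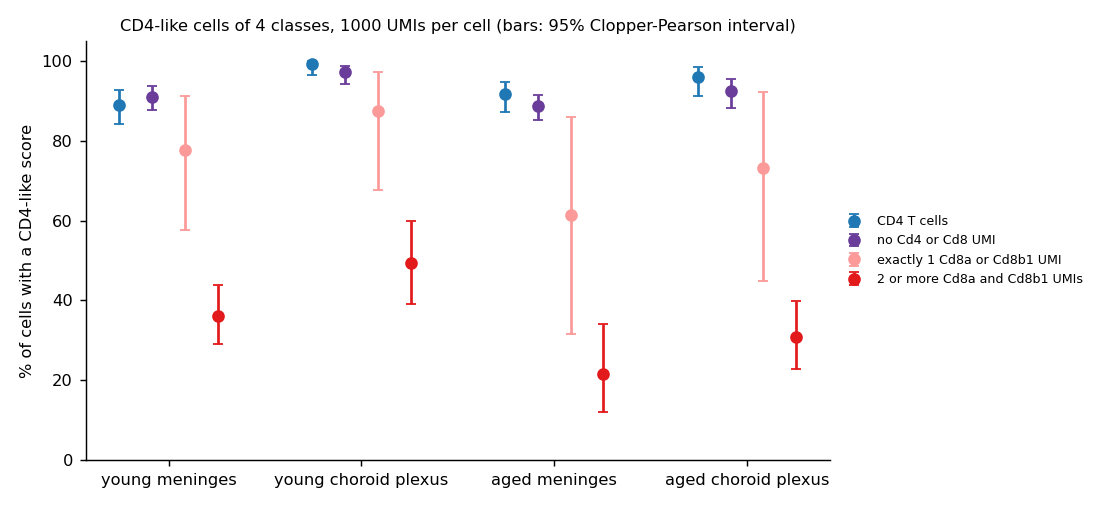
Percentage of cells with a CD4-like score (y axis) in each library, after thinning to 1000 UMIs, with 95% Clopper-Pearson intervals. No-coreceptor T cells (purple) lie beside CD4 T cells (blue) at 88.7% to 97.2%, cells with 2 or more Cd8 UMIs (red) lie below them in each library, and cells with exactly 1 (pink) lie between.

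The values next to the threshold of the rule on either side were as follows. CD4 T cells with exactly 1 Cd4 UMI were CD4-like in 89.0% and 99.2% of cases in the young tissues, and those with 2 or more in 88.9% and 100%. Cells with exactly 1 Cd8a or Cd8b1 UMI (27, 25, 14 and 16 cells, of which 27, 24, 13 and 15 were deep enough) were CD4-like in 77.8%, 87.5%, 61.5% and 73.3%, above cells with 2 or more Cd8 UMIs in each library. At the lower limit on CD3, cells that met every other criterion but had no Cd3 UMI numbered 10, 2, 20 and 5. Just inside and outside the limit on mitochondrial UMIs were 14, 25, 38 and 23 members at 4% to 5% and 8, 10, 24 and 14 cells at 5% to 6%.

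Cd40lg gave a further view of the members at a common depth. In cells thinned to 1000 UMIs, 15.8%, 12.99%, 23.98% and 11.1% (7.32 to 16.0) of no-coreceptor T cells had a Cd40lg UMI, 17.6%, 18.6%, 22.7% and 23.0% (16.5 to 30.6) of CD4 T cells, and 3.48%, 0.826%, 6.85% and 4.44% of CD8 T cells. The first 2 classes overlapped in 3 libraries, and in the aged choroid plexus the members lay below CD4 T cells without overlap. Without thinning the shares were 35.2%, 28.2%, 37.3% and 31.1% of no-coreceptor and 41.2%, 38.9%, 44.7% and 44.3% of CD4 T cells. The intervals in the aged choroid plexus then overlapped (25.2 to 37.4 for no-coreceptor and 36.2 to 52.7 for CD4 T cells). In the same library the whole CD4 helper list summed to 1182 CPM (1097 to 1273) against 1513 (1396 to 1638).

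Transcripts of cell state, from naive to effector memory, differed between the libraries of no-coreceptor T cells. Naive T cells express Ccr7, which guides them to lymph nodes, with the factors Lef1, Tcf7 and Klf2, and effector memory cells express Cd44, Cxcr3, Cxcr6 and S100 proteins. The 12 naive genes summed to 6199 (6059 to 6341), 5130 (4969 to 5296), 2572 (2470 to 2677) and 2306 (2187 to 2431) CPM in no-coreceptor T cells. The 18 effector memory genes summed to 2051 (1970 to 2133), 2811 (2691 to 2934), 8281 (8097 to 8467) and 8913 (8675 to 9155) CPM. In the young meninges the members had more of the naive and less of the effector memory transcripts than CD4 T cells, which had 5400 (5238 to 5566) and 3509 (3379 to 3643) CPM. In the other libraries CD4 T cells had 4919, 2778 and 2558 CPM of the naive and 3291, 8429 and 9153 CPM of the effector memory genes. The members' naive sum was thus above that of CD4 T cells in both young libraries and below it in both aged ones. Their effector memory sum was below that of CD4 T cells in every library. In the aged libraries, however, the CD4 value lay within the members' interval.

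**Figure D4:**
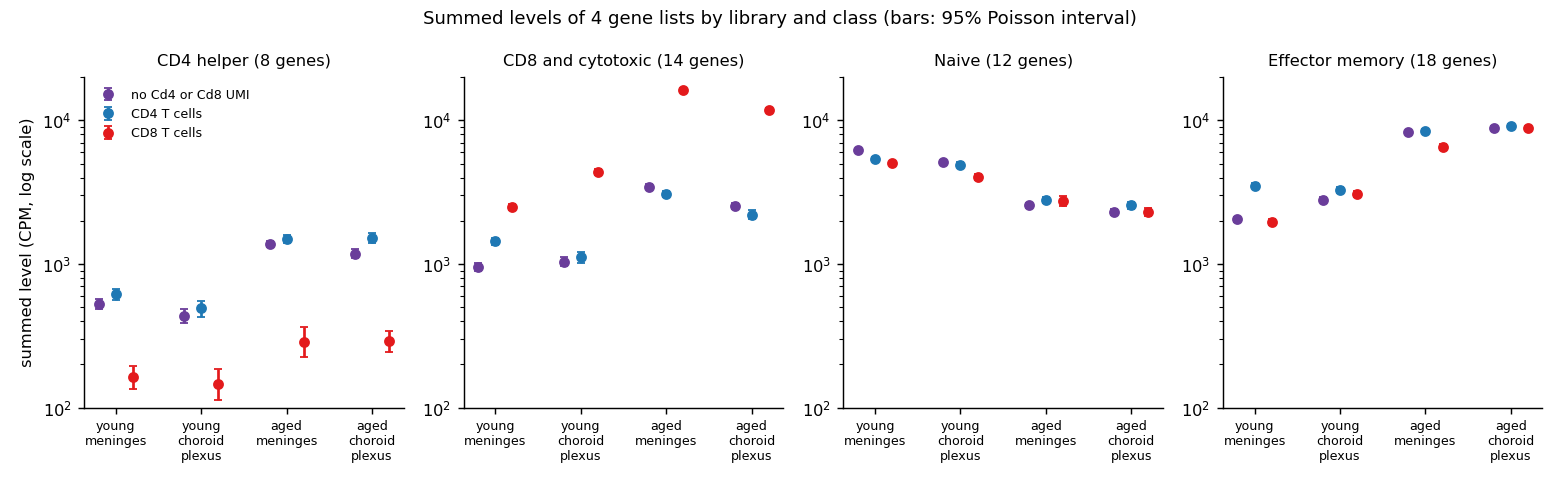
Summed level (CPM, log axis) of 4 gene lists in each library for no-coreceptor (purple), CD4 (blue) and CD8 (red) T cells, with 95% Poisson intervals. On the CD4 helper and the CD8 and cytotoxic lists purple points lie nearer to the blue than to the red ones, although purple and blue intervals do not overlap for the cytotoxic list in the young meninges (954 against 1438 CPM), in the aged meninges (3456 against 3055 CPM) and in the aged choroid plexus (2526 against 2210 CPM), or for the helper list in the aged choroid plexus (1182 against 1513 CPM). The naive and effector memory lists differ more between ages than between classes.

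Aged and young libraries were compared within no-coreceptor T cells by size alone, with no test. A gene passed with 20 or more UMIs in the library where it was higher and a log2 ratio of CPM plus 10 of 1 or more in size. Such sums do not tell more cells with a transcript from more transcript per cell. In the meninges 311 of 5989 genes were higher (5.19%) and 123 lower (2.05%) with age, and in the choroid plexus 226 of 4365 were higher (5.18%) and 93 lower (2.13%). Of the 4331 genes measured in both tissues, 133 were higher in both and 54 lower in both, and 1 went opposite ways. The median ratio over all genes was 0.05 and 0.13 log2. These counts depend on the CPM added: with 1 and 50 CPM in place of 10, the meninges had 477 and 72 higher genes, with 268 and 31 lower ones. The choroid plexus had 341 and 54 higher genes under these settings, with 167 and 18 lower ones.

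Naive genes were lower in the aged libraries, 10 of 12 in the meninges and 7 of 12 in the choroid plexus, at a median log2 ratio of -1.35 and -1.29. Ccr7 went from 704 to 107 CPM in the meninges and from 405 to 83.3 CPM in the choroid plexus. Lef1, a factor that keeps naive T cells quiescent, went from 527 to 95.5 CPM and from 542 to 81.6 CPM. Il7r and Bcl2, which serve the survival of naive and memory cells alike, did not pass the rule in either tissue, with ratios of -0.13 (meninges) and -0.14 (choroid plexus) for Il7r and of 0.29 and 0.79 for Bcl2. After thinning, a UMI of the naive list was present in 94.7% of young and 74.8% of aged meningeal members, and in 94.9% and 79.6% of those in the choroid plexus.

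Effector memory genes were higher, 16 of 17 measured genes in the meninges and 16 of 16 in the choroid plexus (median log2 ratio 1.86 and 1.46). S100a6, a calcium-binding protein, went from 143 to 1615 CPM in the meninges and from 321 to 1950 CPM in the choroid plexus. The chemokine receptor gene Cxcr3 had ratios of 2.02 and 1.21, the galectin gene Lgals1 of 2.22 and 2.14, and the factor gene Maf of 2.50 and 2.28. Tbx21, the factor of type 1 responses, had a ratio of 0.55 in the meninges and was the gene of the list that did not pass there. CD4 helper genes were higher for 4 of 7 and 4 of 6 genes measured, and Cd40lg, at 0.53 and 0.32, was not among them. None of 11 T-cell genes passed in either tissue (median -0.01 and 0.17). On the CD8 and cytotoxic list 7 of 10 and 4 of 7 genes were higher and Dapl1 was lower in both tissues.

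Cytokine transcripts were more abundant in the aged meninges, at 614 CPM (564 to 666) for 11 genes against 62.3 (49.0 to 78.1) in young meninges, 35.0 (22.8 to 51.2) in young and 125 (98.2 to 157) in aged choroid plexus. Areg, which encodes the repair factor amphiregulin, gave 55.1% of this, with 338 CPM (302 to 377) in aged meningeal members from 69 of 434 cells, and 0.831, 0 and 23.3 CPM in the young meninges, young choroid plexus and aged choroid plexus. Aged meningeal CD4 T cells had 148 CPM (118 to 184) of Areg, from 29 of 235 cells. Ifng and Tnf, cytokines of type 1 responses, had log2 ratios of 2.29 and 1.66 in the meninges. In the choroid plexus Tnf had a ratio of 1.10, and Ifng, with 8 UMIs in the young and 7 in the aged library, was too rare for the rule.

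The 10 genes with the largest mean ratio over both tissues were Penk, Tnfrsf4, S100a6, Ikzf2, Tmem176a, Capg, Gpm6b, Eea1, Tigit and Pdcd1. Penk, which encodes the opioid precursor proenkephalin, had no UMI in members of either young library (upper limits 3.07 and 4.96 CPM) and 54.7 (40.7 to 72.0) and 185 (152 to 223) CPM in the aged ones. Tnfrsf4 stood at 33.2, 25.6, 296 and 340 CPM, and the inhibitory receptor gene Pdcd1 at 17.5, 6.72, 131 and 98.3 CPM. Ikzf2, the factor Helios, stood at 31.6, 13.4, 217 and 192 CPM. In CD4 T cells the log2 ratios of aged over young were 1.497 and 3.89 for Tnfrsf4, 2.11 and 2.93 for Pdcd1 and 2.55 and 2.25 for Ikzf2, beside 2.82 and 3.30, 2.36 and 2.69, and 2.45 and 3.103 in no-coreceptor T cells. Of the genes with the smallest mean ratio, Dapl1, Lef1, Igfbp4, Actn1, Satb1, Ccr7, Atp1b1, Gm14085 and Sgk3 are named here. Satb1, an organizer of chromatin in lymphocytes, stood at 303, 288, 53.7 and 43.3 CPM, and Igfbp4, a binding protein of insulin-like growth factors, at 742, 734, 105.2 and 157 CPM.

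**Figure D5:**
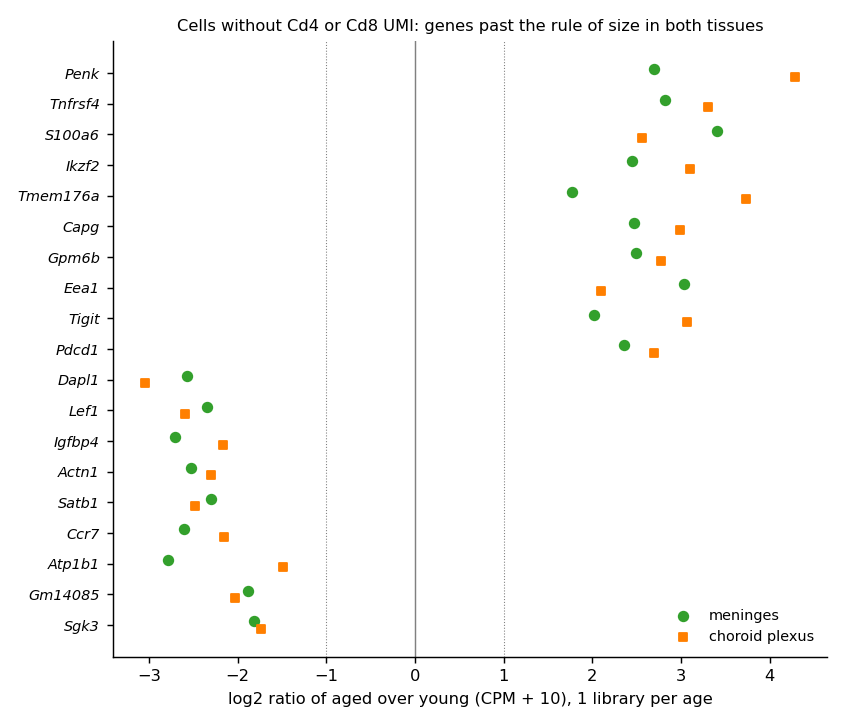
Log2 ratio of aged over young (CPM plus 10, 1 library per age) in no-coreceptor T cells of the meninges (green circles) and the choroid plexus (orange squares), for the genes with the largest and smallest mean ratio among those past the rule of size (dotted lines at 1 and -1) in both tissues. Among these genes S100a6 has the largest ratio in the meninges, 3.41. That both tissues lie on the same side of 0 is fixed by the choice of genes higher in both or lower in both.

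Stress and immediate-early transcripts differed between the libraries of no-coreceptor T cells, and with 1 library per condition tissue, age and library cannot be told apart. The 8 stress and immediate-early genes, led by Junb, summed to 2290 (2205 to 2377), 276 (239 to 316), 3570 (3450 to 3693) and 456 (404 to 514) CPM, and to 2409, 287, 3147 and 616 CPM in CD4 T cells. Both meningeal libraries were far above both choroid plexus libraries. Ribosomal protein genes took 37.2%, 38.2%, 30.9% and 32.1% of the members' UMIs. By age, 3 of 8 stress genes were higher in the meninges and 1 of 3 in the choroid plexus, Pecam1 was lower in the meninges (-1.55), and Ighm (-0.57 and -0.45) and the 4 haemoglobin genes in the meninges (median 0.07) did not pass. The part of these measures in the values by age was not tested. Depth was lower in the aged libraries, and after thinning each cell to 1000 UMIs 264 meningeal genes were higher and 125 lower with age. The choroid plexus then had 129 higher and 70 lower genes.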

How the data were processed

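UMI counts per gene and cell, as the authors deposited them, were made with Cell Ranger from 5′ libraries read on an Illumina NextSeq. The matrix headers name version 3.1.0 and the submitters' processing notes version 5.1.0, with STAR and build mm10. The files hold every called cell (31053 genes). The study removed doublets later, whereas here Scrublet marked them and they were kept. Cells were filtered to 200 to 7000 genes and no more than 5% mitochondrial UMIs. A cell held a median of 3149, 2886, 2152 and 2651 UMIs in the 4 libraries, which limits what a missing transcript can show.

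The members, lists and tests were chosen with earlier results of these data known. Counts were summed per library and class (12 sums) and tested with edgeR 4.0.16 (R 4.3.3, quasi-likelihood test, library as a block, Benjamini-Hochberg), with Cd3, coreceptor and the 10 excluded genes left out. The 4 libraries are pools of mice that differ in age and tissue. The p-values set a class difference against a spread between libraries, estimated once per gene from all 12 sums, CD8 T cells included. Cells could not be assigned to single mice within a library, and nothing was tested by age. Levels have exact Poisson and shares exact Clopper-Pearson intervals at 95%. The Cd4 model was a zero-truncated Poisson regression with log depth as offset. Named genes were those of the rule and of 18 lists, the 10 most raised and 10 most lowered among called genes, and the 10 with the largest and 10 with the smallest mean ratio by age past the size rule in both tissues, without receptor, immunoglobulin, mitochondrial and ribosomal protein genes. Some genes are not reported here. Scripts were tested on simulated data. Analysis used Python 3.11.15 with numpy 2.4.6, scipy 1.17.1, pandas 2.3.3 and scanpy 1.11.5. Alternatives changed the normalization (DESeq2 1.42.0, RLE), filters, block, references, thinning, gene sets, pseudocounts and models, or left out a library, and 3 were added after seeing the data.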

Additional observations from a re-analysis of the deposited data

Results flagged for a closer look

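The chemokine gene Cxcl10, which encodes a ligand of CXCR3, went opposite ways with age in no-coreceptor T cells of the 2 tissues. Its log2 ratio of aged over young (CPM plus 10) was 1.93 for the meninges but -1.58 for the choroid plexus. It had 4 UMIs in 4 cells of the young meninges, 37 UMIs in 3 cells of the young choroid plexus, 38 UMIs in 12 cells of the aged meninges and 6 UMIs in 3 cells of the aged choroid plexus. CD4 T cells held 11.5, 2.05, 79.4 and 14.7 CPM of it in the same libraries. The difference between the tissues was not tested, as each value rests on 1 library.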

How the results depend on the processing

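The number of no-coreceptor T cells kept within 1.5 times its value in 16 of 16 alternatives. The Cd4 estimate moved out of its interval in 3 of 19: in the aged meninges to 263 without the depth offset and to 722 with a zero-truncated negative binomial model, and in the aged choroid plexus to 321 with the latter, which could not be fitted for Cd4 in the young choroid plexus. For Cd8 that model gave 6.71, 11.7, 9.91 and 9.08 cells, and capture and recapture of the 2 genes moved the estimate to 3.699, 2.66 and 0.661 in all but the young meninges. A separate Cd4 rate for each class of depth gave from 37.0% to 186% of the members of a class, fitted on 39 to 93 CD4 T cells per class (added after seeing the data).

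The position by CD4 genes moved in the young meninges to 67.1% with gene sets from the 3 other libraries, 82.9% with a log2 ratio of 1.5 and 108% after thinning, in the young choroid plexus to 84.8% with sets from the 3 other libraries and 77.99% with all CD4 and CD8 T cells as references, and in the aged meninges to 79.9%, 76.0%, 91.3% and 79.2% under these 4 settings. The position by CD8 genes moved in the young meninges to 147% with the other libraries' sets, 142% at 1.5 and 136% without the top 5% by Scrublet score, in the aged meninges to 100.2% after thinning, 107% with all references and 99.96% without that top 5%, and in the aged choroid plexus to 97.0% with the other libraries' sets and 102% with all references. The share of CD4-like members moved to 94.2% unthinned and 94.9% with the other libraries' sets in the young meninges, to 100% unthinned in the young choroid plexus and to 85.1% with the other libraries' sets in the aged meninges.

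Genes that passed against CD4 T cells (5 in edgeR with the library block) were 0 with DESeq2 (77 at an unadjusted p under 0.05), 55 without the filter on low counts, 0 after thinning (170 at an unadjusted p under 0.05 in edgeR), 19 with all references and from 2 to 12 with 1 library left out. Against CD8 T cells 452 became 229 with DESeq2, 213 after thinning, 744 with all references and from 328 to 371 with 1 library left out. The 3 classes of a library come from the same pooled mice and the same run, so library was the pairing, and without this block 0 genes passed against CD4 T cells (edgeR, 102 at an unadjusted p under 0.05) and 36 against CD8 T cells. Izumo1r, Cd40lg, Cd81, Cd5, Cd247, Nkg7, Klrd1, Ctsw, Cd160 and Lcn4 kept their call against CD8 T cells without the block. With 1 library left out the call was lost for Zbtb7b without the young meninges, the young choroid plexus or the aged choroid plexus, for Gzma without the aged meninges, and for Cd83 without either aged library. Hbb-bs reversed to -0.39 against CD4 and -0.32 against CD8 T cells without the cells of over 100 haemoglobin UMIs.

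By age, higher genes in the meninges numbered 477 with 1 CPM added, 72 with 50 CPM added and 164 at 50 UMIs, and lower genes 268 and 31 with 1 and 50 CPM added. In the choroid plexus higher genes numbered 341, 54 and 89 under the same settings and 129 after thinning, and lower genes 167, 18 and 48. The causes of these shifts were not tested beyond what the settings themselves change. Depth limits all of this: at 1 library per age and under 1 Cd4 UMI expected per cell, no single cell can be assigned to a lineage by a missing transcript.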

Other observations

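Areg in the aged meningeal members was not carried by 1 cell: the cell with the most had 33 of 315 UMIs, and 15.9% of the cells had at least 1. The share was 12.3% in CD4 T cells and 1.32% in CD8 T cells of that library.

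Among cells without a coreceptor UMI that the 10 further genes removed, the leading gene was Gzmk in both aged libraries and differed between the young ones. In the young meninges Klrb1c was present in 26 of them and Foxp3 in 25, and in the young choroid plexus Foxp3 in 7. The aged meninges had Gzmk in 160 and Foxp3 in 82, and the aged choroid plexus Gzmk in 53 and Il1rl1 in 33. Il17a was present in 1, 0, 9 and 1 cells.

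Ribosomal protein genes took a share of UMIs in no-coreceptor T cells (37.2%, 38.2%, 30.9% and 32.1%) that lay between those of the CD4 class (34.6%, 36.7%, 29.3% and 30.8%) and the CD8 class (41.8%, 41.0%, 37.3% and 36.0%) in each library.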
